A study of Mus musculus with 8 samples.

Results

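Respiratory complex I (NADH:ubiquinone oxidoreductase) is assembled mostly from nuclear-encoded proteins whose genes carry the symbol Nduf, and 45 of the 8125 genes in the analysed table had a symbol that begins so. They were taken by that symbol alone, a rule that uses no measured value. The list was chosen with earlier results of these data known. The data were ribosome profiling libraries (Ribo-seq) of undifferentiated mouse embryonic stem cells (mESCs) grown in LIF and serum. Control cells were heterozygous for Dis3l2 (Dis3l2 +/-), a gene for an exoribonuclease of structured non-coding RNA, and knockout cells lacked it (Dis3l2 -/-), the disruption having been made with CRISPR/Cas9. All cells received cycloheximide to hold ribosomes in place. Input (mRNA after depletion of ribosomal RNA) and ribosome-protected fragments (RPFs), the footprints left on mRNA when a nuclease digests what ribosomes do not cover, were each sequenced in 2 libraries per genotype, 8 libraries in 4 groups. The study describes 2 biological replicates of cultures, and the sources used here do not say whether a genotype is more than a single clone, so that genotype cannot be told apart from a difference between clones.

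Values are given in normalised units, which scale the reads of a library by a common factor without regard to gene length. Translation efficiency (TE) is the RPF value of a gene over the mean input value of its genotype. RPF depth was low: the 45 genes together held 2974 and 6234 reads in control RPF 1 and 2, but 1667 and 770 in knockout RPF 1 and 2. A member had a median of 57 and 106 reads in control and of 34 and 15 in knockout, and 14 members had fewer than 10 reads in knockout RPF 2 against 3 and 1 members in the control libraries. A single read was worth 15.6 units in knockout RPF 2 and 1.94 units in control RPF 2. Input was deep, with 8382211 to 33609787 value steps per library over all genes. Of the markers of the labelled cell type, 10 of 10 embryonic stem cell genes were listed, with a summed input between 13020 and 13376 units, and 0 of 10 markers of fibroblast feeders were among the genes analysed. Of 10 primitive endoderm markers 5 were listed, and Cubn, Col4a1 and Col4a2 rose in knockout input. The summed input of the 5 listed markers was 690 and 682 units in control and 966 and 1044 in knockout, and the part of such cells in the values below was not tested. Dis3l2 itself was not among the genes analysed here.

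Complex I takes electrons from NADH, passes them along a chain of iron-sulfur clusters in an arm that juts into the mitochondrial matrix, and hands them to ubiquinone, while a second arm in the inner membrane pumps protons. A set of core subunits conserved from bacteria does the chemistry. Accessory subunits surround them, and dedicated assembly factors, which are not kept in the finished enzyme, build it from modules. By these roles the 45 genes comprised 7 core subunits of the matrix arm, 9 accessory subunits of the matrix arm, 19 accessory subunits of the membrane arm, the acyl carrier protein Ndufab1, 7 assembly factors (Ndufaf1, Ndufaf2, Ndufaf3, Ndufaf5, Ndufaf6, Ndufaf7 and Ndufaf8), and Ndufa4 with its paralogue Ndufa4l2, which keep a complex I name although Ndufa4 is now placed in complex IV. Ndufb1 and Ndufaf4 were not analysed here.

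Ribosomes reach a coding sequence at its start codon, so the letters around it are shown for the members on which the TE results turn: those of highest and lowest control TE, and those with the smallest p-values for a TE change. Each line gives 9 bases before the start codon, the start codon in capitals and the next 12 bases, 5′ to 3′, from the principal transcript in GENCODE M21 (GRCm38).
Ndufaf8: ggaccgctcATGtctgtgaacgga
Ndufa4l2: tgggacaagATGgcaggaactagt
Ndufs7: gaggccaagATGgcggcgctggcg
Ndufa12: cagatgagaATGgagctggtggag
Ndufb9: ccggacgctATGgcgttctgcgct
Ndufa6: ctcggcaagATGgcggccgcggcc
Ndufa11: cagctaggtATGgcgatggtgaag
Ndufa3: aagaacaagATGgccgggagaatc
Ndufs3: ctaaggaacATGgcggcggctgca
Ndufa1: ggtgcggagATGtggttcgagatt
Ndufaf6: gcgggtgtcATGgcgacctccatg
Ndufaf7: ggtgtaggaATGaatgctttggtg

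A purine at position -3 from the start codon, a letter that favours initiation in vertebrates, was present in 44 of 45 members (97.8%) and in 88.0% of 7957 listed genes with an annotated stretch of that length. Ndufaf8 was the exception. A G at position 4, directly after the start codon, was present in 62.2% of members and 54.4% of listed genes, and both letters together in 62.2% and 47.9%. The annotated 5′ leader was short, with a median of 92 bases in members and 157 in listed genes. The letters AAGATGGCGGC, which span the start codon, stood at the start of 7 members, Ndufs7, Ndufa6, Ndufs6, Ndufa2, Ndufs4 and Ndufa9 among them, or 15.6%, and of 1.59% of 8119 listed genes. This was the most frequent run over these positions among members, so its count is a description. It contains ATGGCGGC, letters found in binding sites of the transcription factor YY1. Control TE of the 7 genes ran from 0.554 (Ndufa6) to 2.42 (Ndufs7), almost the whole span of the subunits.

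Promoter windows of RefSeq (GRCm38.p6; 250 bases before to 50 after the transcript start) were found for 39 members, in 41 windows, and were searched on both strands. The YY1 letters ATGGCGGC were in the windows of 7 members (17.9%) and of 6.89% of 6500 listed genes, or 2.24% of all windows. Unlike the other letters searched, these were taken from the most frequent start run of the members themselves. Their higher share in members was partly fixed by that choice and is only a description. At Ndufb5, Ndufa9, Ndufs7, Ndufs6 and Ndufs4 the match included the start codon itself. The NRF1 letters GCATGCGC, of a factor known for nuclear genes of respiration, were in the windows of Ndufaf5, Ndufa11, Ndufa6 and Ndufa8 (10.3% against 7.49% of listed genes and 2.71% of all windows). The GABP letters CCGGAAG were in 15.4% of members and 24.0% of listed genes (8.86% of all windows), and the SP letters GGGCGG in 51.3% and 73.3% (35.7% of all windows). The ERR letters TCAAGGTCA were in 0 member windows and in 0.246% of listed genes (0.423% of all windows). A gene was counted if any of its windows matched, and the number of windows per listed gene was not compared. By window, members had 9.76% for NRF1, 14.6% for GABP and 51.2% for SP, each above the share of all windows. A match is a run of letters and not a measured binding site.

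In control cells the ribosome occupancy of complex I genes, taken as RPF per kilobase of coding sequence so that genes can be compared, was higher for subunits than for assembly factors, and so was their mRNA. The 36 subunits, Ndufab1 included, ran from 94.4 to 1515 units per kb of coding sequence in the control mean, a 16.1-fold span, and the middle of them lay between 331 and 734 (quartiles). The 7 assembly factors ran from 54.1 to 154 units per kb. Control input per kb of coding sequence had a median of 475 units in subunits and 80.6 in assembly factors, while the median TE was 1.16 and 0.935. Whether input was counted over that sequence alone was not stated. As the median of subunits over the median of assembly factors on the log2 scale, with a pseudocount of 10 units, the ratio was 5.16 and 4.31 in control RPF 1 and 2 and 8.32 and 7.23 in knockout RPF 1 and 2. Both knockout ratios were above both control ratios. No test was made of this summary, and assembly factors rested on 1 to 12 reads each in the knockout libraries.

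**Figure D1:**
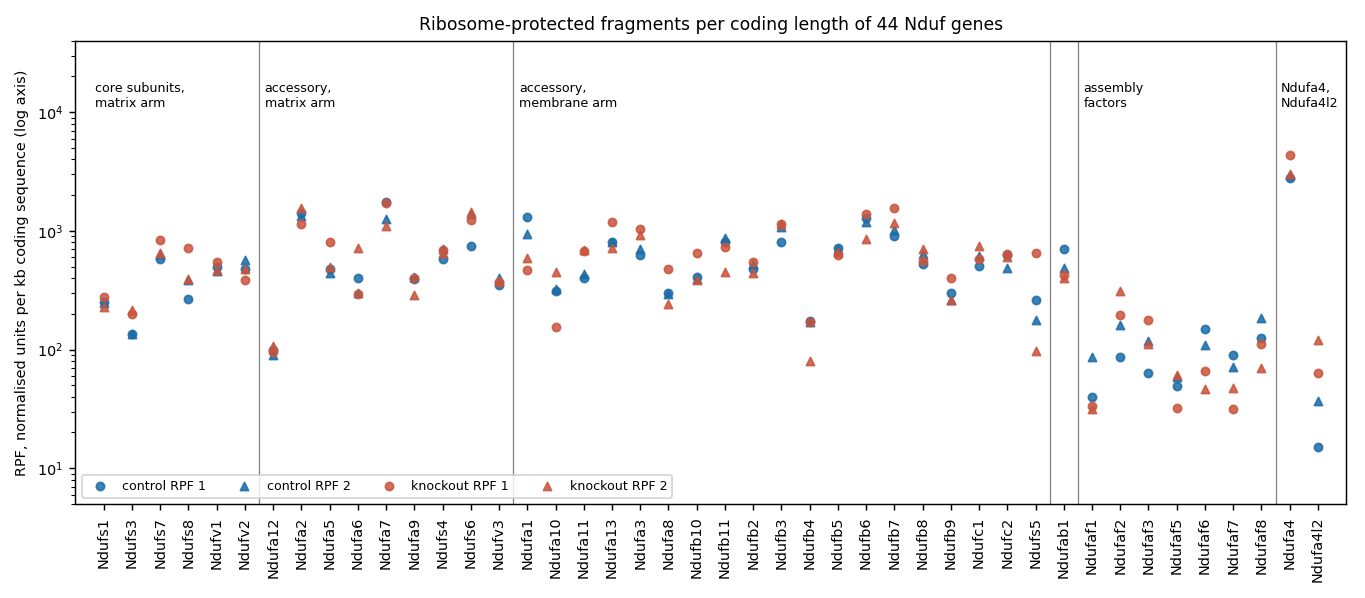
RPF level of 44 Nduf genes in normalised units per kilobase of coding sequence (vertical log axis), with control libraries in blue, knockout libraries in red, replicate 1 as circles and replicate 2 as triangles. Genes are grouped by role, with Ndufab1 alone in the narrow unlabelled field before the assembly factors, which lie below nearly all subunits, and Ndufa4 has the highest level in all 4 libraries.

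The highest level per coding length was that of Ndufa4, with 2770 and 2956 units per kb in control and 4342 and 3034 in knockout. Its knockout values both lay above its control values, by a log2 RPF change of 0.34 ± 0.22 (SE) that did not pass (limma adjusted p = 0.604). Ndufa7, an accessory subunit of the matrix arm, followed with 1766 and 1264 units per kb in control and 1721 and 1101 in knockout, and the genotypes overlapped. Ndufa2, a thioredoxin-like accessory subunit of the same arm, had 1419 and 1339 in control and 1134 and 1571 in knockout, again overlapping. Among the lowest were Ndufa4l2 (15.1 and 37.2 units per kb in control, from 1 and 5 reads), Ndufaf5, which hydroxylates an arginine of NDUFS7 in human cells (49.8 and 58.4), and Ndufaf1, a member of the complex that builds the membrane arm (39.8 and 86.2). The lowest subunit was Ndufa12, with 99.6 and 89.2 units per kb in control. The level of Ndufv3 per length is uncertain, because the annotated principal transcript is its long isoform of 1404 coding bases.

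Core subunits, which the enzyme holds in equal number, differed in occupancy. Their control means per coding length ran 4.53-fold. The lowest was Ndufs3 (135 ± 0.293, SD, n = 2, from 27 and 55 reads), a structural subunit of the ubiquinone module. The highest was Ndufs7 (612 ± 44.8), which holds the last iron-sulfur cluster before ubiquinone. An SD of 2 values can fall below counting error. For Ndufs3 in control RPF 1 the 95% counting interval (exact Poisson) was 70.1 to 154.7 units around 106, before division by length. Ndufs1, the largest subunit and the carrier of several clusters, had 250 ± 3.97 units per kb. Ndufv1, which binds NADH and the flavin, had 477 ± 26.0, and its cluster-bearing neighbour Ndufv2 had 522 ± 64.9. Ndufv1 and Ndufv2 differed by less than the spread of Ndufv2. Ndufs8, with a pair of clusters, had 325 ± 83.4.

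TE of the members lay slightly above that of all genes in every RPF library. The median TE was 1.14 and 1.09 in control and 1.27 and 1.18 in knockout, where the median of all listed genes was between 0.989 and 0.9997. Between 27 and 30 of 45 members were above the library's median gene. On the log2 scale and over tested genes, with a pseudocount of 10 units, the members' median exceeded that of all genes by 0.13 and 0.07 in control and by 0.29 and 0.20 in knockout. The region counted for input was not stated. If it was the coding sequence, as for RPF, length cancels in TE. If it was the whole transcript, TE is not a ratio per length. Across the 45 members control TE had a Pearson's r of -0.35 with coding length. For the case of whole transcripts, RPF was divided by coding length and input by the length of the principal transcript. That ratio had a Spearman's rho of 0.84 with TE. Both describe genes that share libraries. In that ratio the extremes were only partly kept. Per length the control means were 0.951 for Ndufa12, 0.697 for Ndufb9, 2.73 for Ndufs7, 13.1 for Ndufab1 and 13.0 for Ndufaf8. The order given below is that of TE not divided by length.

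The order of TE among members was wide and partly shared by the libraries. Across the 45 genes r of TE was 0.82 between the control replicates, 0.74 between the knockout replicates and 0.52 to 0.75 between a control and a knockout library. Spearman's rho was 0.81, 0.69 and 0.52 to 0.74. Replicates of a genotype share the same mean input, which can raise their correlation and is not so between genotypes. The highest control means belonged to 2 genes of few reads, Ndufaf8, a partner of Ndufaf5 (3.70 ± 1.01, SD, n = 2, from 7 and 21 reads), and Ndufa4l2 (2.91 ± 1.74, from 1 and 5 reads). Ndufs7 came next with 2.42 ± 0.177 from 99 and 223 reads, and was the highest of the subunits. Ndufb11 (2.25 ± 0.130) and Ndufb3 (2.11 ± 0.432), both single-pass subunits of the membrane arm, followed, and these neighbours did not differ beyond their spread.

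The lowest control TE was that of Ndufa12, the subunit that takes the place of the assembly factor Ndufaf2 late in assembly, at 0.373 ± 0.0291 (SD, n = 2). Its TE was 0.345 and 0.391 in knockout, so all 4 values were close together although they rested on 3 to 20 reads. Ndufb9 (0.531 ± 0.0494) and Ndufa6 (0.554 ± 0.111), which share the short motif named LYR that docks acyl carrier proteins, came next and did not differ beyond their spread.

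**Figure D2:**
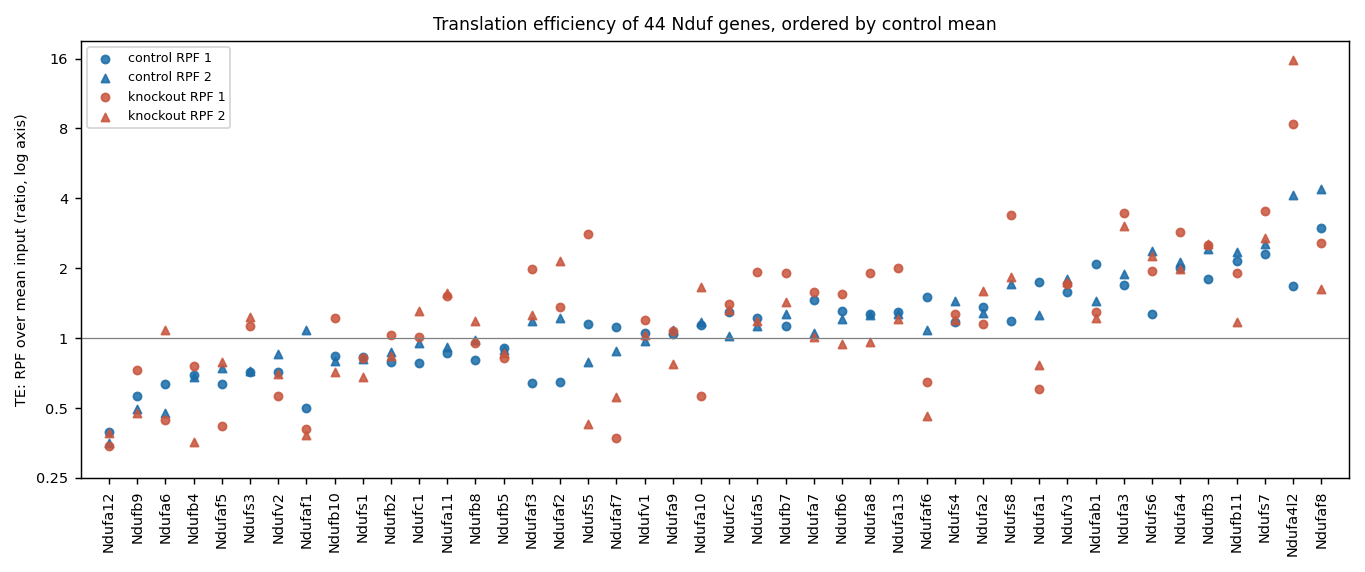
TE of 44 Nduf genes (vertical log axis, ratio of RPF to the mean input of the genotype) in each RPF library, ordered from left to right by the control mean, with control in blue, knockout in red, replicate 1 as circles and replicate 2 as triangles. TE rises from 0.373 for Ndufa12 to 3.70 for Ndufaf8 in the control mean, and the knockout points of Ndufs5, Ndufa10 and Ndufa6 lie far apart from each other.

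The input libraries addressed whether mRNA abundance of complex I genes depended on Dis3l2. Log2 changes of their mRNA were small. Of 43 members tested with limma, 0 passed (3 at an unadjusted p under 0.05), where 0.239% of 7946 tested genes rose and 0.101% fell, and 12.7% had an unadjusted p under 0.05. The members' log2 changes ran from -0.26 to 0.15 around a median of -0.02, beside 0.00 for all genes tested. Of them 21 (48.8%) were positive and 22 negative, where 51.3% of tested genes were positive. In 9 members the knockout values were both above, and in 10 both below, the control pair, beside 22.6% and 21.2% of listed genes. Ndufa4l2 and Ndufaf8 were too low in input to be tested.

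Ndufa3, a small single-pass subunit of the membrane arm, had the smallest input p. It measured 93.7 and 93.0 units in control and 82.7 and 70.0 in knockout input. The genotypes did not overlap, and the log2 change of -0.26 ± 0.09 (SE) did not pass (limma adjusted p = 0.290). Ndufb8 (-0.16) and Ndufb2 (-0.17), accessory subunits of the same arm, came next among lower members, with adjusted p = 0.355 and 0.356. Ndufs1 measured 644 and 684 units in control and 760 and 707 in knockout, a log2 change of 0.14 ± 0.07 that did not pass (adjusted p = 0.409). Ndufs4, an accessory subunit whose loss in mice causes a Leigh-like encephalopathy, had a log2 change of 0.15, and Ndufb10, a membrane arm subunit that faces the intermembrane space, had 0.13, with adjusted p = 0.436 and 0.437.

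The RPF libraries addressed whether ribosome occupancy differed. Of 41 members tested 0 passed with limma (3 at an unadjusted p under 0.05), where 0.335% of 6260 tested genes rose and 0.288% fell and 10.8% had an unadjusted p under 0.05. edgeR called 0 (5 at an unadjusted p under 0.05) and DESeq2 called 0 (0 at an unadjusted p under 0.05), with 25 members given no adjusted p by the latter. The median log2 change was 0.16 beside -0.02 for all genes tested, and 25 members (61.0%) were positive where 48.4% of tested genes were. Without knockout RPF 1 the members' median was 0.02 with 22 positive, and it was 0.10 without either control RPF library. In 12 members the knockout values were both above, and in 9 both below, the control pair, beside 20.9% and 20.5% of listed genes. The median standard error of a member was 0.313 in RPF against 0.0753 in input. Replicates of a member differed by a median of 1.38-fold in knockout RPF and 1.14-fold in control RPF. Ndufa12, Ndufa4l2, Ndufaf1 and Ndufaf8 were too low in RPF to be tested for RPF or TE.

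The TE comparison addressed ribosome occupancy relative to mRNA level. Of 41 members tested 0 passed with limma (6 at an unadjusted p under 0.05), where 0.0% of 6240 tested genes rose, 0.0% fell and 13.0% had an unadjusted p under 0.05. The members' log2 changes ran from -1.09 to 0.84 around a median of 0.15 (all genes tested, -0.02). Of them 27 (65.9%) were positive and 14 negative, where 48.1% of tested genes were positive. The members' median was 0.01 with 21 positive without knockout RPF 1, 0.26 without knockout RPF 2 and 0.09 without control RPF 2. In 13 members the knockout values were both above, and in 9 both below, the control pair (21.2% and 21.0% of listed genes). Signs follow the names of the library columns. The sign of the fold change in the authors' table was opposite for 7533 of all 8125 genes, 43 of the 45 members among them, so every direction given here rests on the column names.

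**Figure D3:**
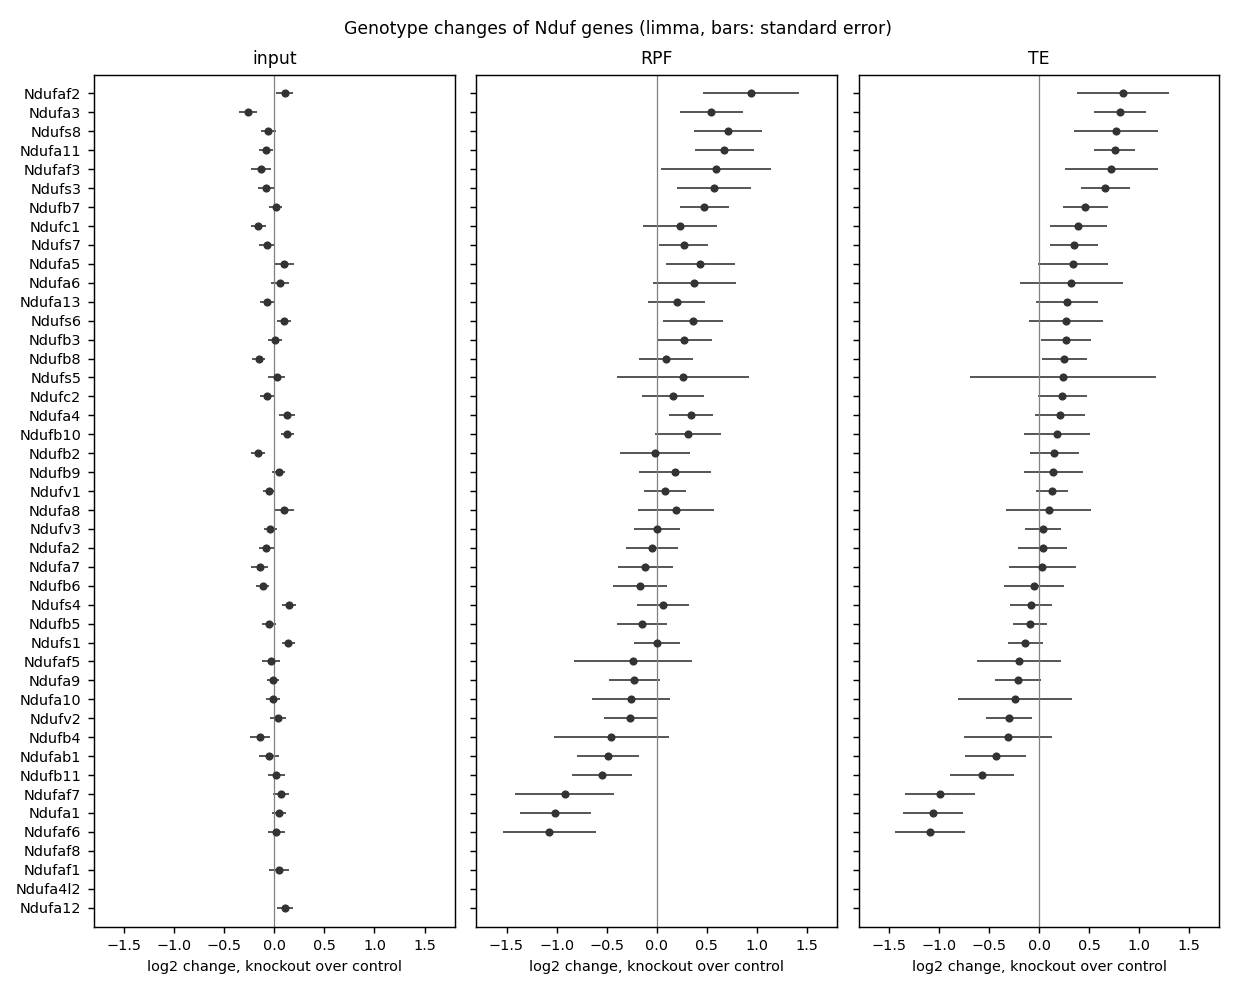
Log2 change of 44 Nduf genes, knockout over control, in input (left), RPF (middle) and TE (right) from limma, with bars of 1 standard error and genes ordered by their TE change. Input points run from -0.26 to 0.15, RPF points from -1.07 to 0.94 and TE points from -1.09 to 0.84 with longer bars, and the 4 genes at the bottom were too low in RPF to be tested.

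Of the 7 core subunits 5 had a positive log2 TE change, where 48.1% of all tested genes did. The median was 0.27, and none passed (limma, 1 at an unadjusted p under 0.05). Ndufs3 had TE values of 0.718 and 0.721 in control and 1.12 and 1.23 in knockout, from RPF values of 106 and 107 units against 156 and 171. The knockout values stood clear of the control values, and the log2 TE change of 0.66 ± 0.25 (SE) did not pass (limma adjusted p = 0.344). Ndufs8 had RPF values of 169 and 244 units in control and 460 and 249 in knockout, with only knockout RPF 1 far above the control libraries. Its log2 changes were 0.71 ± 0.34 in RPF (adjusted p = 0.471) and 0.77 ± 0.42 in TE (adjusted p = 0.483).

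Log2 TE changes of Ndufs7, Ndufv1, Ndufs1 and Ndufv2 were smaller. Ndufs7 had TE values of 2.30 and 2.55 in control and 3.53 and 2.71 in knockout. The genotypes did not overlap, and the log2 change was 0.35 ± 0.24 (adjusted p = 0.580). Ndufv1 (1.05 and 0.976 in control, 1.20 and 1.03 in knockout) and Ndufs1 (0.831 and 0.812, 0.818 and 0.679) overlapped between genotypes. Ndufv2 was lower in both knockout libraries (0.565 and 0.702, against 0.716 and 0.854), with a log2 change of -0.30 ± 0.23 (adjusted p = 0.619).

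Accessory subunits of the membrane arm, the largest group, held the largest log2 TE change among subunits in each direction. On the positive side the core subunit Ndufs8 (0.77 ± 0.42, SE) lay close to Ndufa3 (0.81 ± 0.26) of this arm. Of the 19 accessory genes of this arm 13 had a positive and 6 a negative log2 change, where 48.1% of all tested genes were positive. Their median was 0.18, and none passed (limma, 3 at an unadjusted p under 0.05). Ndufa11, a multi-pass subunit of the membrane arm on chromosome 17 (56717767 to 56722141, GRCm38, plus strand, 4 exons), had RPF values of 173 and 184 units in control and 288 and 295.5 in knockout, and TE of 0.863 and 0.918 against 1.52 and 1.56. Both knockout libraries gave nearly the same value, from 35 and 19 reads beside 44 and 95 in control. The 95% counting interval of knockout RPF 2 (177.9 to 461.4 units) reached into that of control RPF 2 (149.1 to 225.2). The log2 TE change was 0.76 ± 0.20 (SE), the smallest p among members (limma adjusted p = 0.252). Ndufa3, on chromosome 7 (3617373 to 3620327, plus strand, 4 exons), had TE of 1.69 and 1.89 in control and 3.44 and 3.06 in knockout, from RPF values of 157.5 and 176.5 units against 263 and 233. Its RPF values were higher and its input values lower in knockout, and the log2 TE change was 0.81 ± 0.26 (adjusted p = 0.321).

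Ndufa1, an X-linked single-pass subunit needed for assembly (chromosome X, 37187588 to 37191163, minus strand, 3 exons), had changes of the opposite sign. Its RPF values were 276 and 198 units in control and 98.6 and 124 in knockout, from 70, 102, 12 and 8 reads, and its TE was 1.75 and 1.25 against 0.605 and 0.764. The genotypes did not overlap in RPF, although the 95% counting interval of knockout RPF 2 (53.7 to 245 units, exact Poisson, which covers counting error only) reached into that of control RPF 2 (161 to 240). Its log2 change was -1.01 ± 0.35 in RPF (adjusted p = 0.317) and -1.06 ± 0.30 in TE (adjusted p = 0.265), while its input change was 0.05. Ndufb11, also X-linked, had TE of 2.15 and 2.34 in control and 1.91 and 1.17 in knockout, a log2 change of -0.57 ± 0.32 (adjusted p = 0.494).

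Accessory subunits of the matrix arm had a median log2 TE change of 0.04 over 8 tested genes. In 0 of 9 were the knockout TE values both above or both below the control pair, beside 21.2% and 21.0% of listed genes. None passed, and the smallest limma adjusted p was 0.728 (0 at an unadjusted p under 0.05). The largest change was that of Ndufa5, at 0.34 ± 0.35. Ndufab1, the acyl carrier, which also serves mitochondrial fatty acid and lipoic acid synthesis, had TE of 2.08 and 1.44 in control and 1.30 and 1.23 in knockout. Both knockout values were lower, and the log2 change of -0.44 ± 0.30 did not pass (adjusted p = 0.586).

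The assembly factors differed among themselves. In RPF both knockout values were below both control values for 4 of 7 (Ndufaf1, Ndufaf6, Ndufaf7 and Ndufaf8) and above for 1 (Ndufaf2), with 1 to 8 reads behind each knockout value of those 4. Over all listed genes 20.5% were lower and 20.9% higher in this way. Ndufaf6, on chromosome 4 (11051045 to 11076205, minus strand, 9 exons), has a fold related to phytoene synthases and is needed in human cells for the mitochondrially encoded subunit ND1. It had RPF values of 150 and 109 units in control and 65.7 and 46.7 in knockout, from 38, 56, 8 and 3 reads. The groups did not overlap, and the log2 changes were -1.07 ± 0.46 in RPF (limma adjusted p = 0.417) and -1.09 ± 0.35 in TE (adjusted p = 0.318).

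Ndufaf7, on chromosome 17 (78937136 to 78948052, plus strand, 10 exons), is an arginine methyltransferase of mitochondria. It had 118 and 93.1 units in control RPF and 41.1 and 62.2 in knockout RPF, from 30, 48, 5 and 4 reads. The log2 change was -0.92 ± 0.49 in RPF (adjusted p = 0.532) and -0.99 ± 0.35 in TE (adjusted p = 0.328). Ndufaf2 had 43.3 and 81.5 units in control RPF and 98.6 and 155.5 in knockout RPF, above control in both libraries, with a log2 change of 0.94 ± 0.48 in RPF (adjusted p = 0.515). Over the 5 tested factors the median log2 TE change was -0.20, with 2 positive and 3 negative (48.1% of all tested genes were positive).

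A few members differed widely between the 2 knockout RPF libraries. Ndufs5, a disulfide-bridged subunit of the intermembrane space, was the extreme, with 205 units (25 reads) in knockout RPF 1 and 31.1 (2 reads) in knockout RPF 2, a 6.60-fold gap, beside 82.7 and 56.2 units in control. Ndufa10, a nucleoside-kinase-like subunit, had 164 and 482 units in the knockout libraries and 335 and 345 in control.

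**Figure D4:**
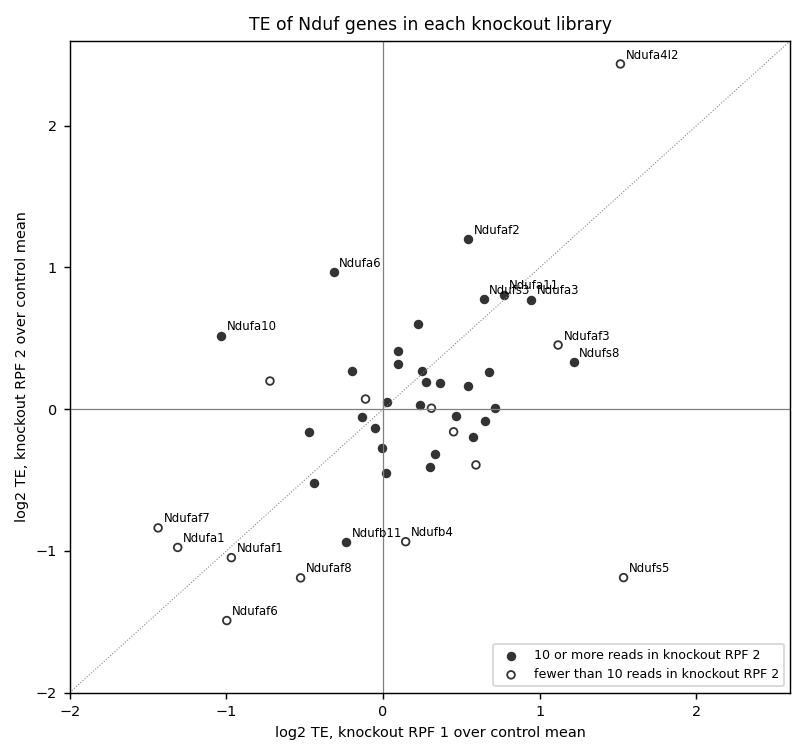
Log2 TE of each Nduf gene in knockout RPF 1 (horizontal) and knockout RPF 2 (vertical) over its control mean, with open circles for genes of fewer than 10 reads in knockout RPF 2, a dotted line of equal values, and names where either ratio exceeds 0.75 in size. Both axes share the control mean, so the points are not independent, and Ndufs5 and Ndufa10 lie far from the dotted line.

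No member passed with both knockout RPF libraries in the fit, and members passed when either was left out. Without knockout RPF 1, limma called 2 members higher and 3 lower in RPF (5.77% and 8.18% of all tested genes were called) and 5 higher and 3 lower in TE (8.72% and 12.8%). Without knockout RPF 2 it called 3 higher and 2 lower in RPF (5.13% and 7.0%) and 7 higher and 3 lower in TE (7.4% and 10.4%). The lone knockout library is then assumed to vary like the others. Ndufa3, Ndufa11 and Ndufa1 kept the sign of their log2 TE change. The changes without knockout RPF 1 were 0.72, 0.78 and -0.90. Without knockout RPF 2 they were 0.89, 0.74 and -1.21, in the same order of genes. Both fits use the same input and control RPF libraries, so like signs are partly built in. How often other genes kept their sign was not counted. Ndufa10 changed sign, with a log2 TE change of 0.51 without knockout RPF 1 and of -0.99 without knockout RPF 2.

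Complex I also needs subunits encoded by mitochondrial DNA and assembly factors without an Nduf name. Of the 7 mitochondrially encoded subunits 5 were listed (mt-Nd1, mt-Nd2, mt-Nd4, mt-Nd5 and mt-Nd6), which are translated by mitochondrial ribosomes. None of them passed in input, RPF or TE with limma (1, 2 and 1 at an unadjusted p under 0.05). Their summed input was 5259 and 4984 units in control and 6849 and 5499 in knockout, without overlap. Most of this sum was mt-Nd5, with 3522 and 3268 units in control and 4876 and 3780 in knockout. The genotypes overlapped in input for mt-Nd1, mt-Nd2 and mt-Nd6. Log2 input changes of the 5 genes ran from 0.05 to 0.42, all positive, with a median of 0.19 (51.3% of all tested genes were positive). Their summed RPF value was 2611 and 2672 units in control and 3221 and 3950 in knockout. TE differed widely among them, from 0.288 and 0.278 in control for mt-Nd5 to 6.17 and 6.99 for mt-Nd6. The control input of mt-Nd6 was only 56.85 and 70.77 units. Whether these ratios reflect translation was not tested.

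Of 14 other assembly factors 12 were listed, such as Acad9, Ecsit, Timmdc1 and Tmem126b, which act with Ndufaf1, and 0 passed in any comparison (limma, 12 tested in input with 1 at an unadjusted p under 0.05, 6 in RPF and TE with 0). Their log2 TE changes had a median of 0.27 and ran from -0.98 (Tmem70) to 0.66 (Tmem126a). For comparison, nuclear-encoded genes of complexes II to V had a median log2 TE change of 0.09 over 41 tested, with 24 positive. Mitochondrial ribosomal proteins had -0.02 over 71 tested, with 34 positive. Over all tested genes 48.1% were positive. No gene of either list passed in TE with limma (6 and 10 at an unadjusted p under 0.05). In RPF 1 gene of complexes II to V rose (Uqcrfs1) and 1 fell (Uqcrh), both of complex III. Neither passed with reads thinned to the shallowest library (adjusted p = 0.293 and 0.156), nor Uqcrfs1 without control RPF 1 or with equalised library medians (limma adjusted p = 0.109 and 0.0829). The difference between these medians and that of complex I genes was not tested.

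Uncertainty of identity touches a few members. GENCODE M21 annotates processed pseudogenes named as copies of Ndufa11 (Ndufa11b), Ndufab1 (Ndufab1-ps), Ndufb4 (Ndufb4c) and Ndufs6 (Ndufs6b). The sources used here do not say how reads that match a gene and such a copy were assigned.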

How the data were processed

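The signal values deposited by the authors come from TruSeq Ribo Profile libraries. The authors' steps were adapter trimming, quality filtering, removal of rRNA and tRNA reads and alignment to canonical mm10 gene models with Bowtie (at most 1 mismatch; its version is not given in the sources used here), with RPFs counted over the coding sequence; the region counted for input was not stated. In each library all values were whole steps of 1 size (100% within 0.02 step), so that the RPF steps gave back reads and the values are not per length, although named RPKM. Totals were 8382211 to 33609787 steps in input and 558962, 1126782, 268255 and 140163 reads in RPF (control 1 and 2, knockout 1 and 2). Reads carry no molecular identifiers, so intervals cover counting error only. The deposited log2 fold change of TE is the authors' own comparison. Only its sign was looked at, to record the direction.

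Genotypes were compared with limma 3.58.1 (lmFit, eBayes with trend, two-sided; R 4.3.3) on log2 of the value plus 10, over all genes whose mean reached 10 in input and 50 in RPF, TE being the genotype by library kind interaction in 8 libraries. Fold changes are on that scale and understate changes of low genes. P-values were adjusted by Benjamini-Hochberg over all tested genes (threshold 0.05). With 2 libraries a side no exact test can reach 0.05. Coding lengths, without the stop codon, came from GENCODE M21, matched for 45 of 45 members. Members, lists and the naming rule were chosen with earlier results of these data known. Members named with values were the 3 of smallest p per direction in input, RPF and TE, the core subunits (1 of which is not reported here by itself), and the 3 highest and lowest in control RPF per length and control TE; Ndufs5, Ndufa10, Ndufb11, Ndufb3, Ndufa5 and Ndufab1 were added after their values were seen. The scripts were tested on simulated data. There limma recovered 14.3% of 2-fold and 80% of 4-fold TE changes. In RPF it recovered 19.6% and 89.1% of such changes, and in input 100% of both. A member that did not pass in RPF or TE may therefore still have changed about 2-fold. The alternatives tried were a pseudocount of 1 or 30, a stricter filter (100 in input, 200 in RPF) or none, equalised medians, replicate blocks, thinned RPF reads, edgeR 4.0.16 and DESeq2 1.42.0 on RPF reads, and each library left out.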

Additional observations from a re-analysis of the deposited data

How the results depend on the processing

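The members called were 0 in input under each alternative run, and 0 in RPF and TE under each except the omission of a knockout RPF library. Leaving out single libraries gave 0 to 5 called members in RPF, both knockout libraries giving 5, and 0 to 10 in TE, with 8 without knockout RPF 1 and 10 without knockout RPF 2; the cause was not tested. The members' median log2 RPF change (0.16) was 0.0952 with no filter, 0.0888 with the stricter filter and 0.291 with RPF reads thinned to the shallowest library, and 0.02497 to 0.1863 on leaving out single libraries. The median TE change (0.15) ran from 0.009595 to 0.258 and the median input change from -0.0519 to 0.0316 when single libraries were left out. With the replicate number as a block the members called were 0 in input, RPF and TE, and with the culture as a block over input and RPF 0 in TE. Same-numbered libraries of the 2 genotypes deviated together at r = 0.09 in input and r = 0.02 in RPF over 6240 genes, so the numbers were not taken as pairs. edgeR, DESeq2 and thinning were not run on input, nor edgeR and DESeq2 on TE, since reads were recovered for RPF only; the thinned TE fit kept input as deposited. The stricter filter left no assembly factor, so it gave no ratio of subunits to factors. Depth limited knockout RPF most, with 8 and 14 members under 10 reads.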
